A study of Saccharomyces cerevisiae with 27 samples.

Results

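The 10 genes described here mark the mating type of a haploid yeast cell or respond to mating pheromone, and they are STE2, STE6, MFA1, MFA2, BAR1, AGA2, STE3, SAG1, FUS1 and AGA1. They were chosen as the probe sets whose gene symbol in the platform annotation is one of these names, which gave 1 probe set for each of the 10 genes among 5716 probe sets tested. RNA from 27 Saccharomyces cerevisiae cultures, grown at 30 °C in YPD with CSM and collected in exponential phase, was hybridised to Affymetrix arrays. The arrays formed 9 groups of 3 replicates that covered 8 genotypes, split between experiment dates called earlier and later here.

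On the later date the groups were the wild type, whose strain is labelled w303a, the eco1-W216G mutant and the fob1 deletion. On the earlier date they were the fob1 deletion again, the eco1-W216G fob1 double mutant, the rad61 deletion, the eco1-W216G rad61 double mutant, and a pair of mcd1 mutants that express Rec8 from the Mcd1 promoter, one of them with fob1 also mutated. ECO1 encodes the acetyltransferase of cohesin, the ring that holds sister chromatids together. Rad61 removes cohesin from chromatin, Fob1 blocks replication forks in the ribosomal DNA, Mcd1 is the ring-closing cohesin subunit of mitosis and Rec8 is its meiotic counterpart. Each genotype was 1 strain, so strain and genotype cannot be told apart. No pheromone treatment is named in the labels, and the labels of the mutants give no mating type.

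In budding yeast a haploid cell is of mating type a or alpha. Cells of type a secrete a-factor and carry the receptor for alpha factor, and cells of type alpha do the reverse. Binding of the partner's pheromone releases a G protein, which signals through a scaffolded kinase cascade to the transcription factor Ste12. Ste12 then induces genes for adhesion, arrest and cell fusion. In a cells the a-specific genes are on by default, whereas in alpha cells a repressor shuts them off and an activator turns on the alpha-specific set.

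Each value below is the log2 intensity of a probe set. Probes differ in brightness, so levels are compared between strains for 1 gene and not between genes. Because each culture is a bulk sample, a difference in the share of cells that express a gene and a difference in the RNA per cell cannot be told apart. Array medians lay between 1221 and 1268 intensity units, and arrays of 1 group correlated between 0.986 and 0.998 over all probe sets tested. The signal that a missing transcript leaves was taken from the deleted genes. FOB1 read 3.74 to 4.30 on the 12 arrays of fob1 mutants and 9.21 to 9.96 on the other 15. RAD61 read 3.67 to 4.35 on the 6 arrays of rad61 mutants and 6.66 to 7.46 on the other 21. The ECO1 probe set read 4.52 to 5.12 on the 9 eco1-W216G arrays and 7.74 to 8.21 on the other 18. FOB1 and RAD61 thus followed the labels of the deletions. The eco1-W216G label names a substitution, which does not by itself remove a transcript, and why the ECO1 probe set read lower was not tested. The highest of the FOB1 and RAD61 values, 4.35, serves as a guide to background, although it comes from other probe sets.

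A pair of arrays stood apart from their replicates. In the rad61 deletion, replicate 2 read above the mean of replicates 1 and 3 in 187 of 191 probe sets of chromosome IX, with a median difference of 0.82 on the log2 scale. On that array FUS1 was 0.79, AGA2 0.57, AGA1 0.50 and MFA1 0.42 below the mean of the other replicates on the log2 scale. In the fob1 deletion of the later date, replicate 2 was 1.59 above the mean of the other replicates for STE3 and 0.55 above it for MFA1, and the median difference over chromosome IX was -0.01. Several results that rest on these arrays are given with and without them.

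**Figure D1:**
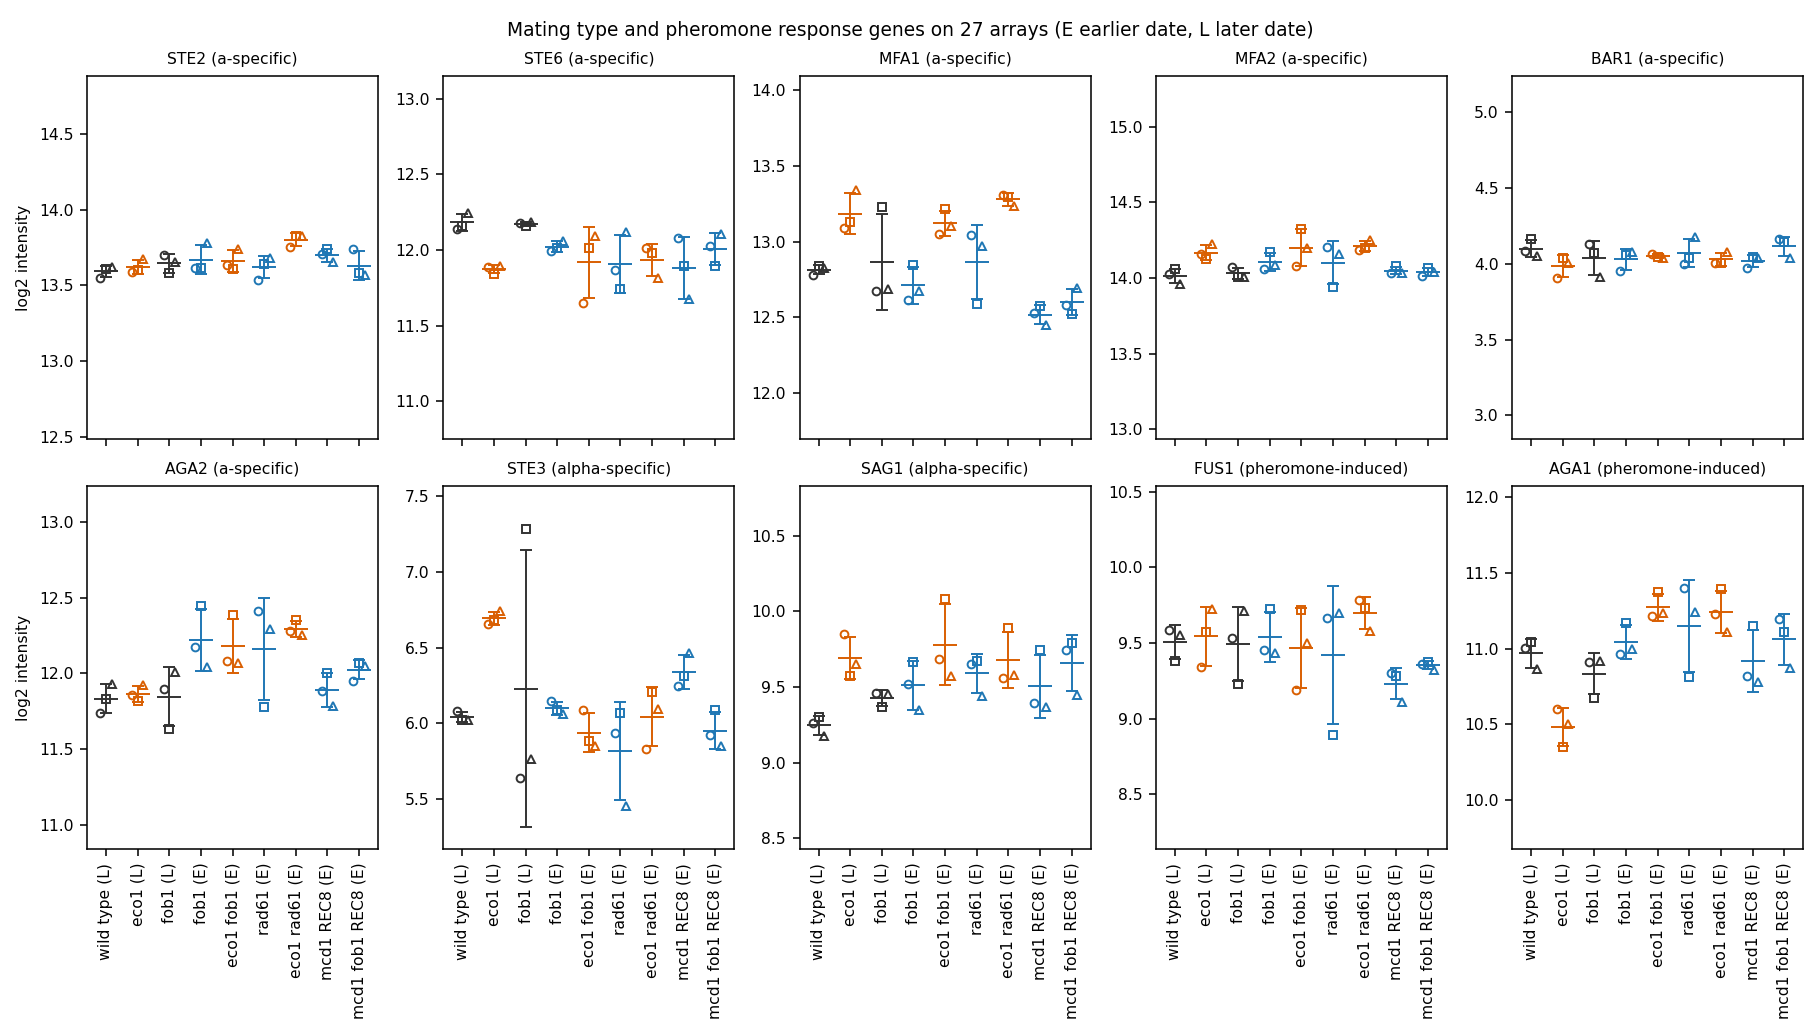
Log2 intensity of the 10 genes (1 panel each) by group, with circles, squares and triangles for replicates 1, 2 and 3, a bar for the group mean and whiskers for 1 SD. Orange marks strains with eco1-W216G, black the other groups of the later date (L) and blue the other groups of the earlier date (E); every panel spans the same number of log2 units. MFA1 is highest in the 3 orange groups, AGA1 is lowest in eco1-W216G alone, and BAR1 lies near 4 throughout.

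All 27 arrays had signal for a-specific genes. STE2, which encodes the alpha-factor receptor, read between 13.54 and 13.83. STE6, the exporter of a-factor, read between 11.65 and 12.25. The a-factor precursors MFA1 and MFA2 read 12.45 to 13.34 and 13.94 to 14.33, and AGA2, the binding subunit of a-agglutinin, read 11.63 to 12.45. These 5 a-specific genes were therefore far above the signal of the deleted genes on every array, in all 8 genotypes.

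Markers of alpha cells were mixed. HMLALPHA1, the probe set for the alpha1 activator, read 3.87 to 4.29, at or below 4.35 on 27 of 27 arrays. MF(ALPHA)1, the main alpha-factor precursor, read 3.97 to 4.98 and was at or below 4.35 on 21 of 27 arrays. Signal was nevertheless present for 2 alpha-specific genes of the set: STE3, the a-factor receptor, read 5.45 to 7.29 and SAG1, alpha-agglutinin, read 9.18 to 10.08. AFB1, which encodes a barrier to a-factor, read 9.83 to 11.16, and MF(ALPHA)2, the second alpha-factor precursor, 5.66 to 6.45. The probe set of HMRA1, the silent copy of the a1 gene whose sequence the active locus shares, read 9.50 to 10.48. Whether signal above background at SAG1 and AFB1 is transcript or cross-hybridisation was not tested. Over all arrays the summed intensity of the 7 a-specific genes listed ran from 42149 to 53490 and that of the 5 alpha-specific genes from 1799 to 3307, sums of different probe sets that are not compared with each other. No strain lacked STE2 or MFA1, which alpha cells and a/alpha diploids do not express.

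BAR1 was the exception among the a-specific genes. It encodes the secreted protease that degrades alpha factor and is on in a cells. Its probe set read between 3.91 and 4.18, at or below 4.35 on 27 of 27 arrays and in every genotype, the wild type included. Only 74 of 5716 probe sets (1.29%) were at or below 4.35 on all arrays. SNL1, the neighbouring gene, read 3.45 to 3.75, and YIL014C-A, 2 genes away on the other side, read 3.65 to 3.96. Next to these, VID28 read 9.58 to 10.63 and MNT3 10.23 to 11.30. The labels name no change at BAR1. Because no group had BAR1 signal, a deleted gene, a silent gene and a probe set that does not work cannot be told apart. The differences of BAR1 between groups lie within background and are not read as levels. None passed the test in the main fit. With quantile normalization repeated, that of eco1-W216G against the wild type did (-0.16, limma adjusted p = 0.0211).

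**Figure D2:**
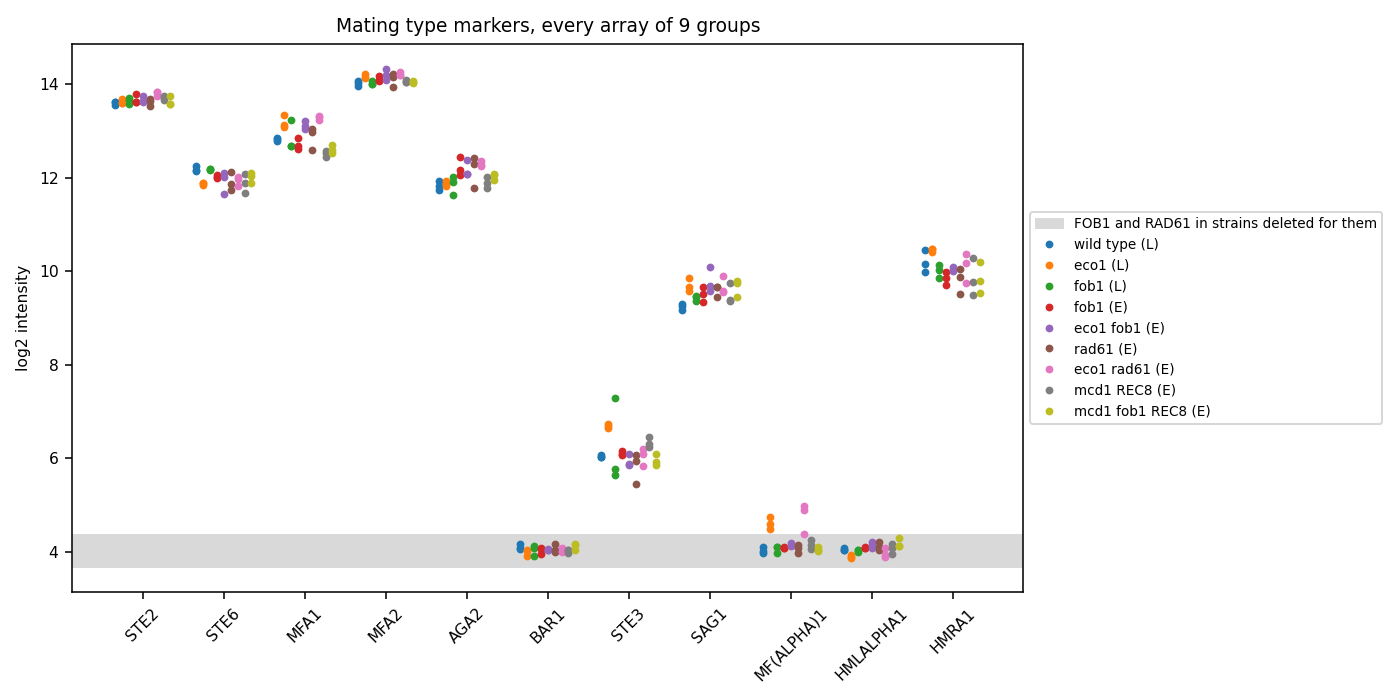
Log2 intensity of mating type markers on every array, coloured by group (L later date, E earlier date), with the grey band marking the range of FOB1 and RAD61 in the strains deleted for them, 3.67 to 4.35. STE2, STE6, MFA1, MFA2 and AGA2 lie far above the band in all groups, whereas BAR1 and HMLALPHA1 lie inside it and MF(ALPHA)1 leaves it in eco1-W216G and eco1-W216G rad61.

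The levels changed little between genotypes. The range of the 9 group means was 0.20 on the log2 scale for MFA2, 0.21 for STE2 and 0.31 for STE6. It was 0.46 for AGA2, 0.46 for FUS1 and 0.53 for SAG1. The widest ranges were those of MFA1 (0.76), AGA1 (0.79) and STE3 (0.88), and that of BAR1 was 0.13. When the groups of each gene were ordered by their mean, there were 8 steps between neighbours. Arrays of neighbouring groups overlapped at all 8 steps for MFA2, BAR1 and AGA2, and at 7 of 8 steps for each of the other genes. Sorting by mean favours overlap of neighbours, so these counts do not measure the range, and groups further apart can be separate. The counts were not set against other probe sets.

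Where that order did break, the step differed by gene. For MFA1 it lay between the rad61 deletion, with a mean of 12.87 ± 0.24 (SD, n = 3), and eco1-W216G fob1 at 13.12 ± 0.08, so that the 3 groups carrying eco1-W216G were the 3 highest. For AGA1 it lay between eco1-W216G at 10.48 ± 0.13 and the fob1 deletion of the later date at 10.83 ± 0.14. For STE3 the break came between mcd1 REC8 at 6.34 ± 0.11 and eco1-W216G at 6.69 ± 0.05. SAG1 broke between the wild type at 9.25 ± 0.06 and the fob1 deletion of the later date at 9.43 ± 0.05. STE2 stood apart in eco1-W216G rad61 (13.80 ± 0.04), above mcd1 REC8 (13.70 ± 0.04). FUS1 stood lowest in mcd1 REC8 (9.23 ± 0.10), just below mcd1 fob1 REC8 (9.35 ± 0.03). STE6 broke between the fob1 deletion of the earlier date (12.02 ± 0.03) and that of the later date (12.17 ± 0.01), which are the same strain. Orders that cross dates can therefore hold a difference between dates.

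The first comparison asked what the eco1-W216G mutation changed against the wild type, on the later date. The a-factor gene MFA1 rose, the alpha-specific genes SAG1 and STE3 rose, and the exporter gene STE6 and the adhesion gene AGA1 fell. Thus 5 of 10 genes passed the test (limma, Benjamini-Hochberg adjusted p under 0.05 over 5716 probe sets), 3 upward and 2 downward. In this comparison 53.6% of all probe sets passed, 23.7% upward and 30% downward, so a count of 5 is near the background. The median difference of the 10 genes was 0.04 on the log2 scale, against -0.05 over all probe sets, and 7 of the 10 had no overlap between the arrays compared, as did 66.3% of all probe sets.

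Among the a-specific genes, MFA1 read 12.78, 12.84 and 12.83 in the wild type and 13.09, 13.13 and 13.34 in eco1-W216G. All mutant arrays lay above all wild-type arrays, a difference of 0.37 on the log2 scale (SE 0.12, 1.29-fold, limma adjusted p = 0.0131). Without eco1-W216G replicate 3 the difference was 0.29 with a limma adjusted p of 0.0729. STE6 read 12.14, 12.16 and 12.25 in the wild type and 11.89, 11.84 and 11.89 in the mutant, and fell by 0.31 on the log2 scale (SE 0.11, limma adjusted p = 0.018). That call was lost without eco1-W216G replicate 2 (limma adjusted p = 0.0521) or wild-type replicate 3 (limma adjusted p = 0.0654). The genes for a-factor and for its exporter thus moved in opposite directions.

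The other a-factor gene, MFA2, read 14.02, 14.06 and 13.96 in the wild type and 14.16, 14.12 and 14.22 in eco1-W216G. Its arrays did not overlap either, and its difference of 0.15 on the log2 scale (SE 0.06) just missed the threshold (limma adjusted p = 0.0502). It passed in 4 of the alternatives described in the closing section. For STE2 the difference was 0.03 (95% interval -0.10 to 0.16) and for AGA2 it was 0.03 (95% interval -0.24 to 0.31), and the arrays of both genes overlapped.

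Among the alpha-specific genes, SAG1 read 9.26, 9.30 and 9.18 in the wild type and 9.85, 9.57 and 9.65 in eco1-W216G, without overlap. It rose by 0.45 on the log2 scale (SE 0.13, 1.36-fold, limma adjusted p = 0.006). STE3 read 6.08, 6.02 and 6.02 in the wild type and 6.65, 6.68 and 6.74 in eco1-W216G, a rise of 0.65 (SE 0.26, 1.57-fold, limma adjusted p = 0.0356). Within these groups its replicates lay close together, while the spread shared by all groups includes the array of the fob1 deletion that read 7.29. The STE3 call was lost when any one of the 6 arrays was left out (limma adjusted p from 0.0622 to 0.0818), and with quantile normalization repeated the difference was 0.31 (limma adjusted p = 0.304). With both arrays that stand apart left out its limma adjusted p was 2.65e-05. Beside these genes, the summed intensity of the 5 alpha-specific genes was 1912 to 2100 in the wild type and 3085 to 3307 in eco1-W216G, whereas HMLALPHA1, which marks alpha cells, was at background in both groups (4.05 ± 0.02 and 3.90 ± 0.03, SD, n = 3). Most of that sum is AFB1, with 1201 to 1323 intensity units in the wild type and 2136 to 2287 in eco1-W216G.

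Of the pheromone-induced genes, AGA1, which encodes the anchor subunit of a-agglutinin, read 11.00, 11.04 and 10.86 in the wild type and 10.60, 10.35 and 10.50 in eco1-W216G. It fell by 0.48 on the log2 scale (SE 0.13, 1.40-fold, limma adjusted p = 0.00309), without overlap, and kept its call in every alternative run. FUS1, which encodes a membrane protein needed for cell fusion, read 9.59, 9.38 and 9.55 in the wild type and 9.34, 9.57 and 9.73 in the mutant. Its arrays overlapped, and the difference was 0.04 (95% interval -0.31 to 0.39). AGA1 is the partner of AGA2 in a-agglutinin, and only the anchor subunit passed the test.

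The next comparisons asked whether the eco1-W216G difference was present in strains that lack FOB1 or RAD61, on the earlier date. They share no arrays with the wild-type comparison or with each other. In the fob1 deletion, 0.787% of probe sets passed and 0 of 10 genes did (limma). At an unadjusted p under 0.05 were 2 of 10, beside 637 of all 5716 probe sets. In the rad61 deletion, 6.72% of probe sets passed (5.18% upward and 1.54% downward), and MFA1 was the 1 gene of 10 that did. The medians of the 10 genes were 0.01 and 0.12 on the log2 scale, against 0.01 and -0.01 over all probe sets.

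MFA1 was higher with eco1-W216G in all 3 backgrounds. In the fob1 deletion it read 12.61, 12.85 and 12.68, and with eco1-W216G added 13.05, 13.21 and 13.10. In the rad61 deletion it read 13.04, 12.59 and 12.97, and with eco1-W216G added 13.31, 13.29 and 13.23. The arrays did not overlap in either background. The differences were 0.41 (SE 0.12, limma adjusted p = 0.145) and 0.41 (SE 0.12, limma adjusted p = 0.041) on the log2 scale, beside 0.37 against the wild type. The low rad61 value is replicate 2, the array that stands apart. Without it the rad61 difference was 0.27 (limma adjusted p = 0.147), and with both arrays that stand apart left out it was 0.27 (limma adjusted p = 0.0223). The rad61 call was lost in 7 of 13 alternatives, among them rad61 replicate 3 left out (limma adjusted p = 0.0531), any one eco1-W216G rad61 array left out (limma adjusted p from 0.0791 to 0.116) and only the arrays compared (limma adjusted p = 0.129). Leaving out both arrays that stand apart, neither of which enters the fob1 difference, kept it at 0.41 with a limma adjusted p of 0.00184. Tests of whether the MFA1 difference varied with the background gave 0.04 for fob1 (95% interval -0.32 to 0.40) and 0.04 for rad61 (95% interval -0.31 to 0.40), intervals that also contain shifts as large as the difference itself.

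AGA1 differed between backgrounds. In the fob1 deletion it read 10.96, 11.17 and 11.00, and with eco1-W216G added 11.21, 11.38 and 11.23. In the rad61 deletion it read 11.40, 10.81 and 11.24, and with eco1-W216G added 11.23, 11.39 and 11.11. The differences were 0.23 (limma adjusted p = 0.542) and 0.09 (limma adjusted p = 0.718), neither past the threshold, where the wild-type comparison gave -0.48. The interaction of eco1-W216G with the fob1 deletion was 0.72 on the log2 scale (SE 0.18, 95% interval 0.34 to 1.10, limma adjusted p = 0.00361). With the rad61 deletion it was 0.58 (SE 0.18, 95% interval 0.20 to 0.96, limma adjusted p = 0.0247). In these tests 39.2% and 23.5% of all probe sets passed, and AGA1 was the 1 gene of 10 that passed in each. Both tests use the same wild-type and eco1-W216G arrays and set differences of the earlier date against one of the later date.

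The rad61 interaction of AGA1 rested on single arrays. It was 0.41 (limma adjusted p = 0.0745) without rad61 replicate 2, and the limma adjusted p was 0.0644 without eco1-W216G replicate 2, 0.0695 without eco1-W216G rad61 replicate 2 and 0.0559 without wild-type replicate 2. The fob1 interaction passed in every alternative run.

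**Figure D3:**
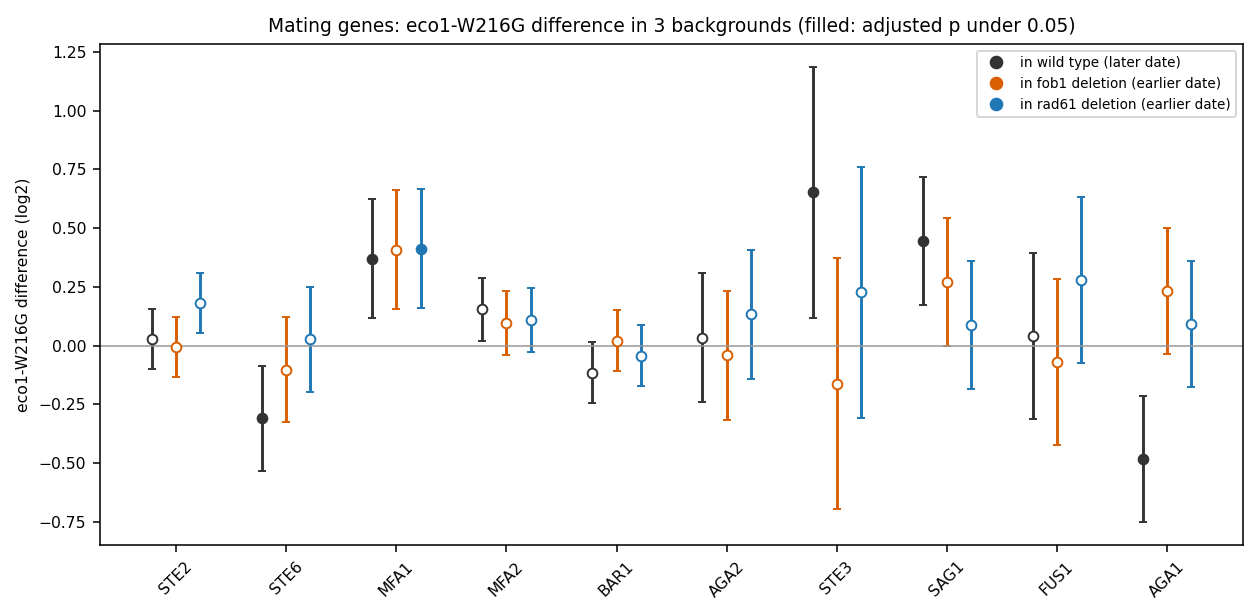
The eco1-W216G difference (log2) of the 10 genes in the wild type (black, later date), the fob1 deletion (orange, earlier date) and the rad61 deletion (blue, earlier date), with 95% intervals from limma and filled points where the adjusted p was under 0.05. MFA1 lies above 0 in all 3 backgrounds, whereas AGA1 lies below 0 in the wild-type background and above it in the other two.

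None of the remaining genes passed in either deletion background in the main fit (limma). STE3 read 6.15, 6.09 and 6.07 in the fob1 deletion and 6.09, 5.88 and 5.85 with eco1-W216G added, with overlap and a difference of -0.16. In the rad61 background the STE3 difference was 0.23 (limma adjusted p = 0.631). With both arrays that stand apart left out it was 0.35 (limma adjusted p = 0.0483). Its fob1 interaction was -0.81 (SE 0.36, limma adjusted p = 0.078). That value passed when only the arrays compared were fitted (limma adjusted p = 3.71e-05) and when both arrays that stand apart were left out (limma adjusted p = 0.000179). SAG1 differed by 0.27 in the fob1 background and 0.09 in the rad61 background, with overlap in both. STE2 read 13.54, 13.64 and 13.68 in the rad61 deletion and 13.75, 13.82 and 13.83 with eco1-W216G added, without overlap. That difference of 0.18 (SE 0.06) had a limma adjusted p of 0.0759. It passed with median centring (limma adjusted p = 0.0449) and with the trended and robust prior (limma adjusted p = 0.0435).

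Without eco1-W216G the genes showed few differences. In the fob1 deletion against the wild type, 15.6% of probe sets passed (8.73% upward and 6.91% downward). Of the 10 genes 0 did (limma, 0 at an unadjusted p under 0.05, beside 1764 of all 5716 probe sets). The differences ran up to 0.19 on the log2 scale, for STE3, and their median was 0.01 against 0.02 over all probe sets. STE3 read 5.64, 7.29 and 5.76 in the fob1 deletion, so that its difference was -0.34 (limma adjusted p = 0.0638) with both arrays that stand apart left out. MFA1 was likewise high in 1 fob1 array only, at 12.67, 13.23 and 12.69.

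The rad61 deletion against the fob1 deletion gave 0.035% of probe sets past the threshold and 0 of 10 genes (limma). Of the 10, 0 were at an unadjusted p under 0.05, beside 279 of all 5716 probe sets. The eco1-W216G rad61 strain against eco1-W216G fob1 gave 4.97% (3.43% upward and 1.54% downward) and 0 of 10 (limma). Only STE2, with 0.14, was at an unadjusted p under 0.05, beside 1114 of all 5716 probe sets. The mcd1 fob1 REC8 strain against the fob1 deletion gave 0.297% and 0 of 10, and against mcd1 REC8 it gave 0.0175% and 0 of 10 (limma). In both, 0 of 10 were at an unadjusted p under 0.05, beside 458 and 173 of all 5716 probe sets. FUS1 read 9.36, 9.38 and 9.32 in mcd1 fob1 REC8 and 9.30, 9.28 and 9.11 in mcd1 REC8, both below the 9.46, 9.73 and 9.44 of the fob1 deletion. The FUS1 difference from the fob1 deletion was -0.19 (95% interval -0.54 to 0.17), without overlap of the arrays but within the error of the fit.

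The fob1 deletion, run on both dates, gave the size of a difference between dates. Here 4.81% of probe sets passed (1.82% higher and 2.99% lower on the earlier date). Of the 10 genes 0 did (limma, 1 at an unadjusted p under 0.05, beside 1194 of all 5716 probe sets). AGA2 read 12.17, 12.45 and 12.05 on the earlier date and 11.90, 11.63 and 12.01 on the later one. Its difference of 0.38 (SE 0.13, limma adjusted p = 0.0982) was the largest of the 10 genes. AGA1 was 0.21 and STE6 -0.15 apart between dates, so differences of this order occurred for 1 strain, although none passed. Replicate 2 of the later date, which stands apart, was 0.32 below the mean of its other replicates for AGA2 and 0.24 below for AGA1. Across the alternatives the difference ran from 0.26 to 0.47 for AGA2 and from 0.13 to 0.25 for AGA1.

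The other genes of the mating pathway were read from 7 lists that hold 84 genes, of which 80 had a probe set and 70 are not among the 10. Some genes stand in several lists. In eco1-W216G against the wild type 10 of these 70 rose and 21 fell, where 53.6% of all probe sets passed, 23.7% upward and 30% downward. Of 5 alpha-specific genes, SAG1 and STE3 included, 4 rose and 0 fell. Their median of 0.58 on the log2 scale is the value of MF(ALPHA)1, whose wild-type arrays lie at background, and is no measured fold. Of 10 haploid-specific genes 0 rose and 6 fell, and of 11 genes of the mating type loci and their silencing 0 rose and 6 fell, with HO counted in both lists. The 6 of 10 and 6 of 11 that passed were all downward, the direction in which 30% of all probe sets passed. In either direction 53.6% of all probe sets passed, and no test compared the lists. The list medians of those last groups were -0.24 and -0.24, against -0.05 over all probe sets.

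HO, the endonuclease of mating type switching, showed the largest fall named. It read 11.39, 11.16 and 11.23 in the wild type and 9.52, 9.77 and 9.73 in eco1-W216G, without overlap, and fell by 1.59 (SE 0.12, 3.00-fold, limma adjusted p = 4.25e-10). In the rad61 background it fell by 0.68 (limma adjusted p = 0.000817), and in the fob1 background its difference was -0.23 (limma adjusted p = 0.482). Both interactions of HO passed the test, with 1.36 for fob1 (limma adjusted p = 2.36e-06) and 0.91 for rad61 (limma adjusted p = 0.000516). In the fob1 deletion against the wild type HO was 0.36 lower (limma adjusted p = 0.0397), and without fob1 replicate 2, the array that stands apart, it was 0.17 lower (limma adjusted p = 0.253).

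Among the alpha-specific genes outside the set, AFB1 rose by 0.81 (SE 0.11, limma adjusted p = 1.81e-06), from 10.29 ± 0.07 to 11.10 ± 0.05 (SD, n = 3). MF(ALPHA)1 read 4.10, 4.02 and 3.97 in the wild type and 4.48, 4.59 and 4.75 in eco1-W216G, a rise of 0.58 (limma adjusted p = 7.78e-05) that starts at background. It also rose in the rad61 background, by 0.68 (limma adjusted p = 0.000255), with 4.38, 4.98 and 4.89 in eco1-W216G rad61. In eco1-W216G fob1 it read 4.14, 4.12 and 4.20 and stayed at background. HMLALPHA1 was at background in all of these groups. ASG7, an a-specific gene, rose by 0.31 in eco1-W216G (limma adjusted p = 0.0327), a call lost in 4 of 13 alternatives.

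Of 15 signalling genes 2 rose and 5 fell in eco1-W216G, near the 53.6% of all probe sets that passed. STE12, the transcription factor of the response, fell by 0.78 (limma adjusted p = 5.2e-08), from 10.64 ± 0.02 to 9.86 ± 0.08 (SD, n = 3). SST2, which switches the G protein off, fell by 0.64 (limma adjusted p = 7.2e-06), and the kinase gene STE20 fell by 0.48 (limma adjusted p = 9.74e-05). STE50, an adaptor of the kinase Ste11, rose by 0.67 (limma adjusted p = 2.85e-07). Of the haploid-specific genes, FAR1, which arrests the cycle, fell by 0.47 (limma adjusted p = 0.00758), the G beta gene STE4 by 0.35 (limma adjusted p = 0.000546) and the scaffold gene STE5 by 0.30 (limma adjusted p = 0.000415).

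Silencing and repressor genes with the lowest adjusted p were SIR4, which fell by 0.53 (limma adjusted p = 3.25e-05), SIR2, by 0.47 (limma adjusted p = 0.00994), and CYC8, by 0.62 (limma adjusted p = 4.41e-08). TUP1, the partner of CYC8, fell by 0.32 (limma adjusted p = 0.0456), whereas SIR1 and SIR3 differed by 0.13 (limma adjusted p = 0.323) and 0.09 (limma adjusted p = 0.271), 3 genes named after their values were seen. SIR2 and SIR4 encode parts of the complex that keeps the silent mating loci off, and Cyc8 is a general corepressor. The probe set of the silent HMLALPHA1 copy differed by -0.15 (limma adjusted p = 0.0503), within background.

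Of 30 genes induced by pheromone 5 rose and 7 fell in eco1-W216G, beside 23.7% and 30% of all probe sets, with a median of -0.04 against -0.05 over all probe sets. AFR1, which shapes the mating projection, rose by 1.17 (SE 0.15, 2.25-fold, limma adjusted p = 1.94e-06), and PRM8, a pheromone-regulated membrane protein gene, rose by 0.97 (limma adjusted p = 1.55e-08). CIK1, a kinesin partner needed for nuclear fusion, fell by 0.53 (limma adjusted p = 4.78e-06). AFR1 also rose in the rad61 background, by 0.94 (limma adjusted p = 0.000537), and differed by 0.30 in the fob1 background (limma adjusted p = 0.49). Of 9 pheromone processing genes 0 rose and 2 fell, namely KEX2, by 0.47 (limma adjusted p = 5.53e-06), and STE13, by 0.32 (limma adjusted p = 0.000913), both of which act on alpha factor.

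**Figure D4:**
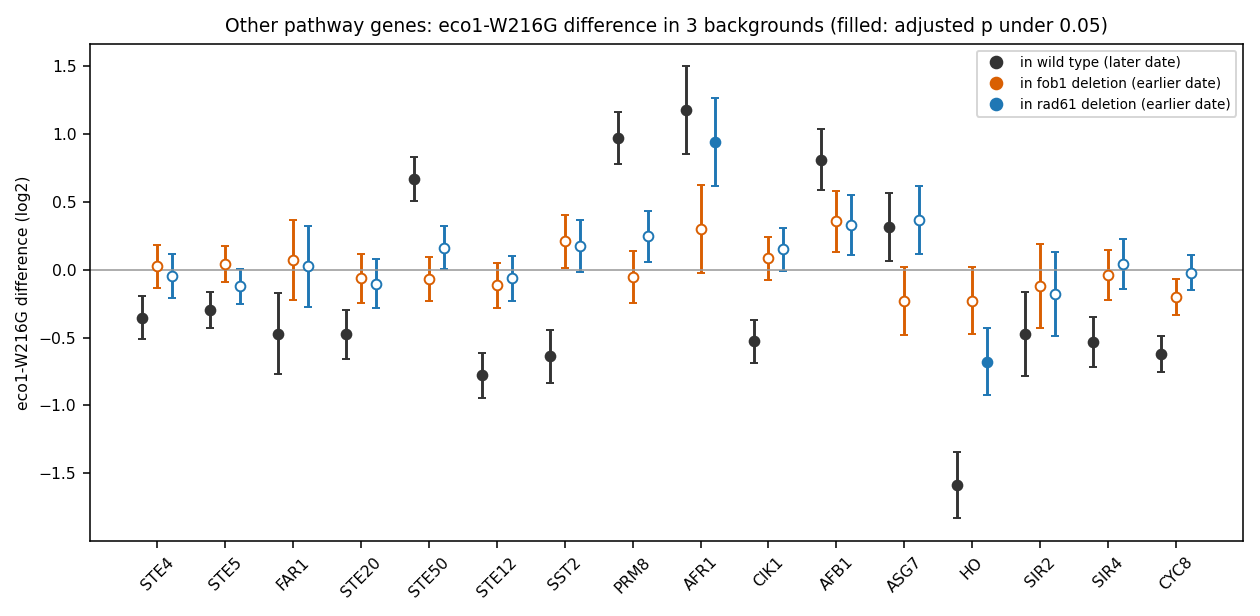
The eco1-W216G difference (log2) of named pathway genes in the wild type (black, later date), the fob1 deletion (orange, earlier date) and the rad61 deletion (blue, earlier date), with 95% intervals from limma and filled points where the adjusted p was under 0.05. The genes shown were chosen among those that passed against the wild type, so all black points are filled by that choice. The orange points are all open, and AFR1 and HO have filled blue points.

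In the other comparisons the counts of pathway genes were near or below the share of all probe sets. In the rad61 background 2 of 70 rose and 1 fell, where 6.72% of all probe sets passed, and these are the AFR1, MF(ALPHA)1 and HO differences given above. The MF(ALPHA)1 call there was lost with only the arrays compared (limma adjusted p = 0.0728). In the fob1 background 0 of 70 passed (limma), where 0.787% of all probe sets did. There 11 of 70 were at an unadjusted p under 0.05, beside 637 of all 5716 probe sets. The fob1 deletion against the wild type gave 8 of 70 higher and 2 lower, where 15.6% of all probe sets passed, among them ASG7 with 0.46 (limma adjusted p = 0.014), STE50 with 0.29 (limma adjusted p = 0.0136) and SST2 with -0.39 (limma adjusted p = 0.00964). Without fob1 replicate 2 the SST2 difference was -0.29 (limma adjusted p = 0.0552), and the AFR1 difference went from 0.46 (limma adjusted p = 0.0445) to 0.21 (limma adjusted p = 0.288). PRM8 went from 0.35 (limma adjusted p = 0.0131) to 0.21 (limma adjusted p = 0.0773). MSG5, a phosphatase gene, went from 0.27 (limma adjusted p = 0.0149) to 0.22 (limma adjusted p = 0.07), and DIG2, an inhibitor of Ste12, had 0.27 (limma adjusted p = 0.0257) and 0.28 (limma adjusted p = 0.052). RAM1, a farnesyltransferase subunit gene, was higher by 0.28 (limma adjusted p = 0.00562). With only the arrays compared, none of these genes passed, HO included (limma adjusted p from 0.096 to 0.247). The ASG7 and STE50 calls were also lost without fob1 replicate 1 (limma adjusted p = 0.0602 and 0.0667) and without wild-type replicate 3 (limma adjusted p = 0.106 and 0.0776).

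The eco1-W216G rad61 strain against eco1-W216G fob1 gave 2 of 70 higher and 1 lower, where 4.97% of all probe sets passed. AFR1 was higher by 0.72 (limma adjusted p = 0.00672) and MF(ALPHA)1 by 0.59 (limma adjusted p = 0.00125), whereas HO was 0.48 lower (limma adjusted p = 0.0187). For MF(ALPHA)1 the eco1-W216G fob1 arrays lay at background (mean 4.15), so that difference is no measured fold. The MF(ALPHA)1 call was lost with only the arrays compared (limma adjusted p = 0.0552), and the HO call in 4 of 13 alternatives that each leave out 1 array (limma adjusted p from 0.0569 to 0.0876). Between the dates of the fob1 deletion, where 4.81% of all probe sets passed, AFB1 was 0.39 and STE14, a methyltransferase gene for a-factor, 0.28 higher on the earlier date, and SIR3 differed by -0.27 and RAM1 by -0.24 (limma adjusted p from 0.0199 to 0.0368). None of these 4 passed without fob1 replicate 2 of the later date (limma adjusted p from 0.053 to 0.173) or with only the arrays compared (limma adjusted p from 0.264 to 0.282).

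The probe sets most alike in pattern were sought over the 9 group means, among 436 probe sets whose group means ranged over at least 1 log2 unit. The correlations are descriptions, and the groups share strains, dates and control arrays. Nearest to the mean of the a-specific genes were TPO2 (r = 0.75), GSY2 (0.70) and PHO5 (0.70). AFB1, an alpha-specific gene, followed with r = 0.68, then AGP2 (0.68) and GIT1 (0.67). The a-specific mean includes BAR1, which lay at background. Nearest to the mean of STE3 and SAG1 were YOR186W (r = 0.94), MPC3 (0.93) and ATO2 (0.92), each lowest in the wild type and highest in eco1-W216G. BTN2, OPI10 and REC104 followed with r = 0.91, and had the same lowest and highest groups. Nearest to FUS1 were YGP1 (r = 0.73), YRO2 (0.70) and AFR1 (0.67), each lowest in mcd1 fob1 REC8 and highest in eco1-W216G.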

How the data were processed

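The labels' protocols describe biotinylated cRNA made from 300 ng of total RNA. Per the submitters' processing notes, the authors used RMA in R 2.15.2, and what they deposited is a linear intensity for each probe set. The sources used here do not state whether the dates were normalized together. log2 was taken of the deposited intensity. The table holds 5814 probe sets, and 51 for controls and 47 for reporters were not tested. The platform table gave 1 symbol to 5498 of the 5716 tested and none to 218. The R64 gene table supplied chromosomes and neighbours.

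A single linear model with a mean for each of the 9 groups, which leaves 18 residual degrees of freedom, was fitted with limma 3.58.1 (R 4.3.3). Tests were two-sided, and p-values were adjusted by Benjamini-Hochberg over 5716 probe sets per contrast, with 0.05 as the threshold. The procedure was tested on simulated data with independent noise. That setting holds no arrays that stand apart and no replicates that deviate together, so it does not cover those features of these data. The labels number 3 replicates per group without saying what separates them, so p-values measure the spread between these samples, and the number of arrays limits the precision.

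The 10 genes and the 7 lists were chosen with earlier results of these data known. Beyond the 10 genes, the names printed by rule are up to 4 called genes per list and comparison with the lowest adjusted p, and up to 6 probe sets per pattern. Other names are mating type markers, the neighbours of BAR1, FOB1, RAD61 and ECO1, and genes stated to be named after their values were seen. Same-numbered replicates deviated together (correlations all above 0.1) in 4 of 9 comparisons of a pair of groups, among them eco1-W216G fob1 against fob1 (0.347 to 0.636) and eco1-W216G rad61 against rad61 (0.316 to 0.381). The alternatives changed the arrays fitted (those compared alone, or without each single array), the model (replicate number as a block, a trended and robust prior), the scaling (quantile normalization once more, or centring on array medians) and the probe sets (without 308 dim ones, of mean log2 6 or less). Leaving out both arrays that stand apart was chosen after seeing the data.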

Additional observations from a re-analysis of the deposited data

Results flagged for a closer look

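For the genes below, a test of the difference between backgrounds, the interaction term of the limma fit, passed at an adjusted p under 0.05. Each value is the eco1-W216G difference in the deletion background on the earlier date minus that in the wild type on the later date, on the log2 scale.

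With the fob1 deletion, AGA1 passed with 0.72, and of the 70 pathway genes 16 had positive and 10 negative interactions, where 39.2% of all probe sets passed. The next values are those of the pathway genes named by the rule of up to 4 per list. Genes that fell in eco1-W216G against the wild type and had positive interactions were HO with 1.36, SST2 with 0.85, STE12 with 0.66, CIK1 with 0.61, KEX2 with 0.53, AKR1 with 0.51, SIR4 with 0.49, CYC8 with 0.42, STE4 with 0.38, STE5 with 0.34, AXL1 with 0.34 and STE13 with 0.33. Genes that rose there and had negative interactions were PRM8 with -1.02, STE50 with -0.74, ASG7 with -0.55, MF(ALPHA)1 with -0.52 and AFB1 with -0.46. In each of these genes the interaction thus had the opposite sign to the eco1-W216G difference in the wild type, which enters both values with the same arrays. For MF(ALPHA)1 the wild type, the fob1 deletion and eco1-W216G fob1 lay at background (means 4.03, 4.09 and 4.15), so its value is no measured fold. The AFB1 call was lost without eco1-W216G fob1 replicate 3 or fob1 replicate 2 of the earlier date (limma adjusted p = 0.0723 and 0.0564), that of ASG7 without that fob1 array or wild-type replicate 3 (limma adjusted p = 0.0526 and 0.0537), and that of STE13 without fob1 replicate 1 of the earlier date (limma adjusted p = 0.0587). Outside the rule, and named after their values were seen, PRM5 gave -1.35, AFR1 -0.87, FAR1 0.54, FIG1 -0.54, ECM18 0.53, KSS1 0.48, STE20 0.41, DIG2 -0.31 and STE11 -0.30.

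With the rad61 deletion, AGA1 passed with 0.58, and of the 70 pathway genes 12 had positive and 5 negative interactions, where 23.5% of all probe sets passed. Of those named by the rule, HO gave 0.91, SST2 0.81, STE12 0.71, CIK1 0.68, CYC8 0.60, SIR4 0.57, KEX2 0.45, STE13 0.38 and STE4 0.31. Negative values were -0.72 for PRM8, -0.51 for STE50, -0.48 for AFB1 and -0.41 for STE11. The STE4 call was lost in 11 alternatives that each leave out 1 array (limma adjusted p from 0.0524 to 0.104), and the AFB1 call in 4 such alternatives (limma adjusted p from 0.0521 to 0.058). Named after their values were seen, PRM5 gave -1.24, KSS1 0.54, ECM18 0.52 and STE20 0.37. The PRM5 value includes rad61 replicate 2, an array that stands apart (11.94 beside 10.72 and 10.67), and was not recomputed without it. Among the 10 genes of the set only AGA1 passed in either test.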

How the results depend on the processing

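Of the 11 counts of the 10 genes, those of the rad61 deletion against the fob1 deletion, of both mcd1 fob1 REC8 comparisons, of eco1-W216G rad61 against eco1-W216G fob1, of the fob1 deletion against the wild type and of the fob1 deletion between dates were 0 in every alternative run. For eco1-W216G against the wild type the count was 5, and 5 to 6 in the alternatives. With quantile normalization repeated the genes counted include BAR1, which lies at background. The count was 3 to 4 when 1 array was left out, and 3 without eco1-W216G replicate 2, eco1-W216G replicate 3 or wild-type replicate 3. For eco1-W216G rad61 against rad61 the count of 1 became 0 with only the arrays compared and with quantile normalization repeated, 2 with median centring, 2 with the trended and robust prior, and 2 with both arrays that stand apart left out. It was 0 to 1 with 1 array left out. For eco1-W216G fob1 against fob1 the count of 0 became 1 with both of those arrays left out and was 0 with 1 array left out. The eco1-W216G by fob1 interaction count of 1 became 2 with only the arrays compared and 2 with both arrays left out, and was 1 with 1 array left out. The eco1-W216G by rad61 count of 1 became 0 with both left out and ran from 0 to 2 with 1 left out, where 2 came without rad61 replicate 3. Neither array that stands apart enters eco1-W216G fob1 against fob1 or the eco1-W216G by fob1 interaction. Without them the MFA1 difference in the first stayed at 0.41 and the STE3 value in the second at -0.81. What changed there were the spread shared by all groups and the adjustment. The cause of the other changes was not tested. MFA2 in eco1-W216G passed with dim probe sets left out (limma adjusted p = 0.0492), quantile normalization (limma adjusted p = 0.00658), the trended and robust prior (limma adjusted p = 0.0262) and both arrays left out (limma adjusted p = 0.0213).

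With the replicate number as a block no call of the 10 genes changed: the count was 5 for eco1-W216G against the wild type, 0 for eco1-W216G fob1 against fob1, 1 for eco1-W216G rad61 against rad61 and 1 for each interaction. Among all probe sets the block moved the calls of eco1-W216G rad61 against rad61 from 384 to 649, of eco1-W216G fob1 against fob1 from 45 to 71, and of mcd1 fob1 REC8 against fob1 from 17 to 47. Fitting only the arrays compared moved the calls of the fob1 deletion against the wild type from 894 to 1, of the fob1 deletion between dates from 275 to 0, and of eco1-W216G rad61 against rad61 from 384 to 182. Leaving out both arrays that stand apart moved eco1-W216G rad61 against rad61 to 906, eco1-W216G fob1 against fob1 to 144, eco1-W216G rad61 against eco1-W216G fob1 from 284 to 704, the fob1 deletion between dates to 119 and mcd1 fob1 REC8 against fob1 to 75. Median centring changed the split between higher and lower calls from 104 and 171 to 141 and 88 for the fob1 deletion between dates, and from 28 and 17 to 26 and 26 for eco1-W216G fob1 against fob1. Of 68 differences of the other named genes, 46 kept their call in every alternative, and no called difference of a named gene changed sign.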

Other observations

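PRM5, a pheromone-regulated gene of chromosome IX, was singled out after its values were seen. It read 10.50, 10.38 and 10.21 in the wild type and 11.93, 11.89 and 11.85 in eco1-W216G, and rose by 1.53 on the log2 scale (limma adjusted p = 2.42e-05). Both arrays that stand apart were as high, with 11.94 in rad61 replicate 2 beside 10.72 and 10.67, and 11.76 in fob1 replicate 2 of the later date beside 10.79 and 10.58. The first of these arrays is the one on which chromosome IX as a whole read high, and the second is not.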
